A study of Mus musculus with 4 samples.

Results

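The nuclear-coded subunits of the mitochondrial respiratory chain were described in 4 RNA libraries of mouse primary cells labelled regulatory T cell. Members were all genes of the files whose identifier belongs, in the GENCODE M21 annotation of the mm10 build, to a protein-coding gene with a symbol that begins with Nduf, Uqcr or Atp5, or that is Sdha to Sdhd or a Cox4 to Cox8 gene. This rule found 93 of 50600 genes, and it used names only, not measured values. By role, 75 of the 93 are subunits found in most tissues: 36 of complex I, 4 of complex II, 8 of complex III, 11 of complex IV and 16 of complex V. The other members are 8 assembly factors of complex I, 9 alternative or tissue-restricted isoforms of complex IV and Atp5s. Some subunits have names that the rule does not catch, such as Cyc1 and Usmg5, and they are not among the members.

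All 4 libraries form 1 group, replicates 1 to 4, from the C57BL/6NJ strain, with no treatment named in the labels, sex not collected and age unknown. Each came from its own biosample, but the donor record in the labels is the same for all 4, so the p-values speak of the spread among these 4 libraries, part of which may be technical. The labels cite a protocol for differentiating CD4 T cells, and the column names inside the files hold the text mmTreg, the text activated and a mark of 0 h. With 1 group there is no treated and control contrast, so levels were compared between genes within a library and each gene was compared between libraries.

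The respiratory chain sits in the inner mitochondrial membrane. Complexes I and II pass electrons from NADH and succinate to ubiquinone, complex III hands them to cytochrome c, and complex IV passes them to oxygen. Complexes I, III and IV pump protons, and complex V, the ATP synthase, uses the proton gradient to make ATP. Most subunits are encoded in the nucleus and imported, while a few in complexes I, III, IV and V are encoded in mitochondrial DNA. Regulatory T cells, CD4 T cells that restrain immune responses and depend on the factor Foxp3, are known for their reliance on mitochondrial respiration.

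Total gene counts were 23000465 to 62090744 per library, of which members took 139157 to 369248. Levels are given as TPM, a length-normalised abundance that divides each count by the gene's exon length and scales each library to a fixed total, as mean ± SD over n = 4 libraries unless stated. Levels are by exon length unless the length of the main coding transcript is named. Where that length turns a stated order between members, its values stand beside the order. The T cell markers Cd4, Cd3e and Cd3g averaged 1067 ± 31.4, 485 ± 20.1 and 431 ± 16.1 TPM. The 4 markers chosen for regulatory T cells were present at low levels, with 8.28 ± 0.867 TPM for Foxp3, 7.77 ± 0.959 for Ctla4, 5.52 ± 2.76 for Il2ra and 1.34 ± 0.194 for Ikzf2. These low levels do not bear out the regulatory T cell label, and the identity of the cells was not tested. The values below are therefore those of cells with that label. B cell markers were at 1.31 to 8.61 TPM, macrophage markers at 0.278 to 11.7 TPM, Cd8a at 0.794 ± 0.288 and Cd8b1 at 39.95 ± 2.55 TPM. The B cell gene Cd79a had 13.5, 9.203, 7.61 and 4.098 TPM in replicates 1 to 4, with the highest value in replicate 1, and the part of such cells in the values below was not tested. In bulk RNA, fewer cells of a type and less RNA per cell cannot be told apart.

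All common subunits were detected, and their levels lay close together between libraries. Of 93 members, 85 reached 1 TPM in every library, whereas 9948 of 21764 protein-coding genes (45.7%) did so. All 75 common subunits, all 8 assembly factors, Atp5s and the isoform gene Cox7a2l were among the 85. The 8 others are complex IV isoform genes and lay below 2 TPM in every library, while the lowest value of any other member was 4.84 TPM, for Atp5s in replicate 3. Members together took 1.169%, 1.173%, 1.226% and 1.204% of all TPM in replicates 1 to 4, a mean of 1.193% ± 0.027. Over the 75 subunits, levels spanned 109-fold, from 677 ± 24.8 TPM for Atp5a1 to 6.23 ± 0.331 TPM for Atp5l, and 52 of the 75 lay between 50 and 300 TPM. By main transcript length they spanned 99.7-fold, from 863 ± 20.2 TPM for Atp5b to 8.65 ± 0.298 TPM for Ndufb2, and 57 lay between 50 and 300 TPM.

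**Figure D1:**
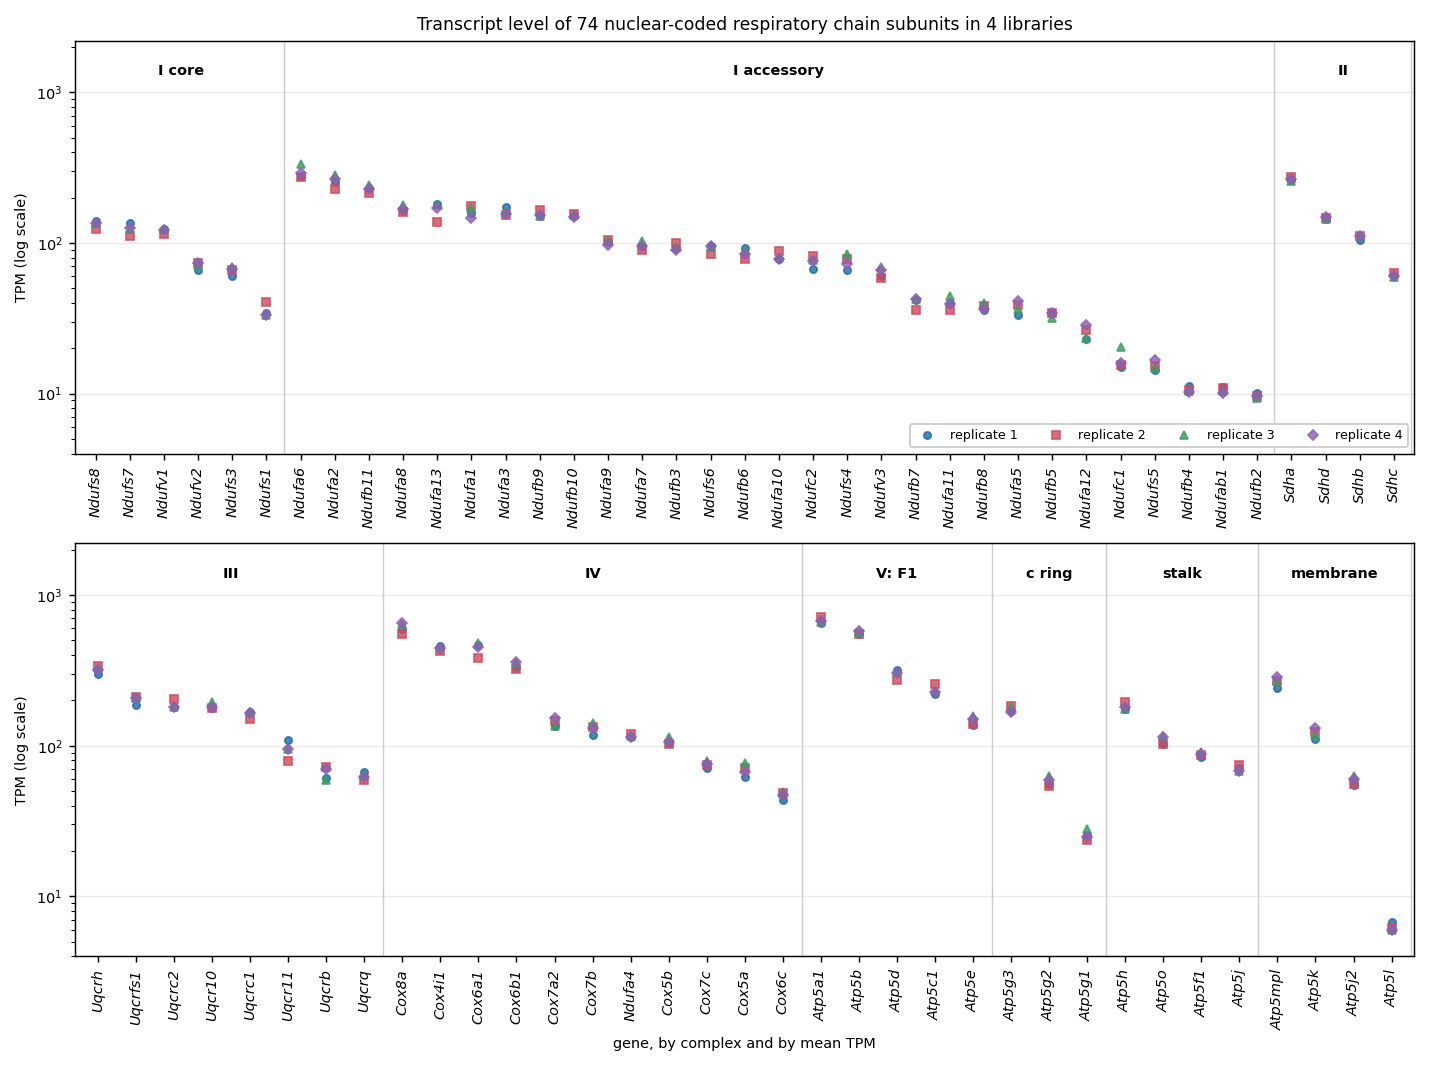
Level of 74 of the 75 common subunits in TPM on a log axis, with 1 symbol per library, grouped by complex and ordered by mean TPM within each group, all by exon length. The 4 libraries lie close together for every gene drawn, relative to the distance between genes, which runs from about 6.23 TPM for Atp5l to 677 TPM for Atp5a1.

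Complex I, the NADH dehydrogenase, had the lowest median subunit level of the 5 complexes, 84.1 ± 2.44 TPM over 36 genes. Its nuclear core subunits carry the flavin and the iron-sulphur clusters. Ndufv1, which binds NADH and the flavin, had 124, 114, 125 and 123 TPM in replicates 1 to 4. Its iron-sulphur neighbour Ndufv2 had 66.4, 74.1, 71.5 and 73.7 TPM. The values of Ndufv1 and Ndufv2 did not overlap, and Ndufv1 over Ndufv2 gave a log2 ratio of 0.76 ± 0.12. Ndufs1, the third subunit of the electron input module, had 34.4, 40.6, 33.4 and 33.4 TPM, with replicate 2 standing above the other libraries. Ndufs1 lay below both by exon length, but by main transcript length it had 74.8 ± 7.3 TPM, above Ndufv2 with 58.2 ± 2.84 TPM.

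Other core subunits lead electrons on to ubiquinone. Ndufs3 had 60.7, 65.7, 68.9 and 67.4 TPM in replicates 1 to 4, lower than Ndufs7 and Ndufs8 in every library by exon length. Ndufs7, which holds the last iron-sulphur cluster before ubiquinone, had 136, 112, 124 and 126 TPM, and Ndufs8, another iron-sulphur subunit, had 140.1, 123, 135 and 136 TPM. Ndufs7 and Ndufs8 overlapped each other between libraries and both were lowest in replicate 2. Ndufs3, with 94.98 ± 5.11 TPM by main transcript length, then had a higher mean than Ndufs8, with 88.8 ± 4.8 TPM, and a lower one than Ndufs7, with 151 ± 12.1 TPM.

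The 29 accessory subunits of complex I, which surround the core, had a median of 80.4 TPM and a 30.4-fold range. The highest by exon length was Ndufa6, a subunit that binds the acyl carrier protein, with 276, 274, 333 and 293 TPM in replicates 1 to 4. Ndufa2, of the matrix arm, followed with 255, 228, 281 and 265 TPM. Both were highest in replicate 3 and lowest in replicate 2, and their ranges overlapped. By main transcript length Ndufa3, Ndufa7 and Ndufb7, with 222 ± 12.5, 214 ± 12.8 and 205 ± 16.7 TPM, had higher means than Ndufa6, with 194 ± 17.8 TPM. At the low end, Ndufab1, the mitochondrial acyl carrier protein itself, had 11.1, 10.8, 10.3 and 10.1 TPM, and Ndufb2, of the membrane arm, had 10.1, 9.702, 9.32 and 9.58 TPM. Ndufb4, also of the membrane arm, averaged 10.6 ± 0.481 TPM and could not be told from Ndufab1, with 10.6 ± 0.468 TPM, while by main transcript length Ndufab1 was the higher, with 14.6 ± 0.653 against 8.87 ± 0.409 TPM. Ndufs5 and Ndufc1 were also below 20 TPM, with 15.3 ± 0.959 and 16.7 ± 2.53 TPM.

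Complex II, succinate dehydrogenase, is also an enzyme of the citric acid cycle, and all its subunits are nuclear-coded. Sdha, the flavoprotein, had 260.2, 274, 256 and 264 TPM in replicates 1 to 4. Sdhb, the iron-sulphur subunit, had 104, 111, 110.5 and 111 TPM. The log2 ratio of Sdha over Sdhb was 1.27 ± 0.05, and Sdha was the higher gene in 4 of 4 libraries. The membrane anchors differed from each other: Sdhc had 60.2, 63.01, 59.1 and 59.98 TPM and Sdhd had 144, 146, 145 and 148 TPM. Complex II genes had the smallest median spread between libraries of the 5 complexes, with a CV of 2.88%, and Sdhd had the lowest CV of all members with a mean of at least 5 TPM, 1.19%.

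Complex III, the cytochrome bc1 complex, had a median of 171 ± 4.52 TPM. Its core protein Uqcrc1 had 167, 152, 168 and 166 TPM in replicates 1 to 4. Uqcrc2, the other core protein, had 180.4, 206, 182 and 182 TPM. In replicate 2 they moved apart, with Uqcrc1 at its lowest and Uqcrc2 at its highest value. Their log2 ratio was -0.20 ± 0.16, and its sign turned by main transcript length, with 284 ± 13.6 TPM for Uqcrc1 and 175 ± 11.4 TPM for Uqcrc2. The Rieske iron-sulphur protein Uqcrfs1 had 186, 210.2, 208 and 208 TPM, lowest in replicate 1. The hinge protein Uqcrh, which contacts cytochrome c1, had 298, 337, 326 and 320.5 TPM and was above every other complex III subunit in every library.

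The small subunits of complex III were spread more widely. Uqcr10 had 178, 178, 195 and 180.5 TPM and Uqcr11 had 109.8, 78.6, 95.1 and 94.8 TPM in replicates 1 to 4. Uqcr11 was highest in replicate 1 and lowest in replicate 2. Uqcrb, which lies near a ubiquinone site, had 60.98, 72.6, 59.01 and 70.2 TPM in the same order. Uqcrq, another small membrane subunit, had 66.5, 59.2, 63.5 and 62 TPM, and the ranges of Uqcrb and Uqcrq overlapped. Cyc1, the catalytic cytochrome c1 subunit that the naming rule leaves out, had 294 ± 12.9 TPM.

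Complex IV, cytochrome c oxidase, had a median of 129 ± 7.29 TPM over its 11 common nuclear subunits, and 4 of them stood above the rest. Cox8a, a small membrane subunit, had 592, 549, 640.3 and 650.1 TPM in replicates 1 to 4. Cox4i1, the largest nuclear-coded subunit, had 458, 427, 453 and 444 TPM, and Cox6a1 had 469, 381, 483 and 449 TPM. Cox6b1, which faces the intermembrane space, had 334, 324, 354 and 359.7 TPM. By exon length Cox8a was the highest of these in each library, and Cox4i1 and Cox6a1 overlapped. Cox4i1 was instead the highest by main transcript length, with 627 ± 19.4 TPM, against 418 ± 32 TPM for Cox8a and 380.4 ± 38.7 TPM for Cox6a1.

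Of the remaining complex IV subunits, Cox7a2 had the highest mean by exon length, with 135, 146, 134 and 154 TPM in replicates 1 to 4, though Cox7b was above it in replicate 3. Cox6c was the lowest by exon length with 43.9, 48.9, 49.4 and 46.8 TPM. By main transcript length it had 159 ± 8.29 TPM, above Cox7a2 with 141 ± 9.32 TPM. Ndufa4 and Cox5a, with 182 ± 4.67 and 157 ± 14.1 TPM by that length, also had higher means than Cox7a2. Cox7c then had the lowest mean, 109 ± 4.33 TPM. Cox5a, which forms part of the matrix side, had 62.2, 71.1, 76.9 and 66.9 TPM, and the zinc-binding Cox5b averaged 107 ± 4.72 TPM. Cox7b had 118, 132, 141 and 131 TPM, and Cox7c averaged 75.02 ± 3.02 TPM. Ndufa4, named for complex I but now assigned to complex IV, had 114, 120.0, 115 and 114 TPM, with the lowest CV of the 11 subunits, 2.57%.

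Complex IV has many tissue-restricted isoforms, and in these libraries the common form was the higher one in each such pair. Cox4i1 had 33794 counts over all 4 libraries, against 7 for Cox4i2, the lung form. Their pooled ratio was 2450, with a 95% counting interval of 1190 to 6100. Cox6a1 had 14987 counts, against 0 for its muscle form Cox6a2, and was at least 4840-fold higher per length, taking 3 counts over the 4 libraries as the limit. Beside Cox6b1, with the values above, its testis form Cox6b2 had 1.61, 0.721, 1.35 and 1.46 TPM in replicates 1 to 4, and Cox6b1 over Cox6b2 gave a log2 ratio of 8.002 ± 0.44, or 7.304 by main transcript length. The muscle form Cox7a1 had 0.257, 1.17, 1.12 and 0.522 TPM, and Cox7a2 over Cox7a1 gave 7.53 ± 0.87. Both low isoforms rest on few counts, 66 for Cox6b2 and 21 for Cox7a1 in all, and neither came near its partner in any library.

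Cox7b2, Cox8b and Cox8c had 0 counts in every library. Cox7b was at least 1170-fold higher than Cox7b2, a testis form. Cox8a was at least 3580-fold higher than Cox8b, a muscle form, and at least 4740-fold higher than Cox8c, a testis form. Ndufa4 had 7922 counts in all, against 1, in replicate 3, for Ndufa4l2, a paralog known as a hypoxia target, a ratio of 6280 with a counting interval of 1130 to 248000. These intervals and bounds cover counting error only. The muscle markers Ckm and Myh7 and the testis markers Prm1, Prm2 and Tnp1 also had 0 TPM in all 4 libraries, and Acta1 averaged 0.265 ± 0.0807 TPM.

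Cox7a2l was the exception among the 9 alternative isoform genes. It encodes a protein related to Cox7a2 and described as a factor for joining complexes III and IV into supercomplexes. Neither the protein nor the allele that this strain carries was examined here, so its RNA level says nothing of that function. By exon length Cox7a2l was the highest of all 93 members, with 696, 729, 754 and 754 TPM in replicates 1 to 4. By main transcript length it had 543 ± 19.9 TPM, below Atp5b, Cox4i1 and Atp5a1. Cox7a2 averaged 142 ± 9.44 TPM and Cox7a2l 733 ± 27.4 TPM. Cox7a2 over Cox7a2l gave a log2 ratio of -2.37 ± 0.09, so Cox7a2l was 5.16-fold higher, in 4 of 4 libraries. Of its sampled 50-base words, 15.1% also occur in transcripts of another gene.

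**Figure D2:**
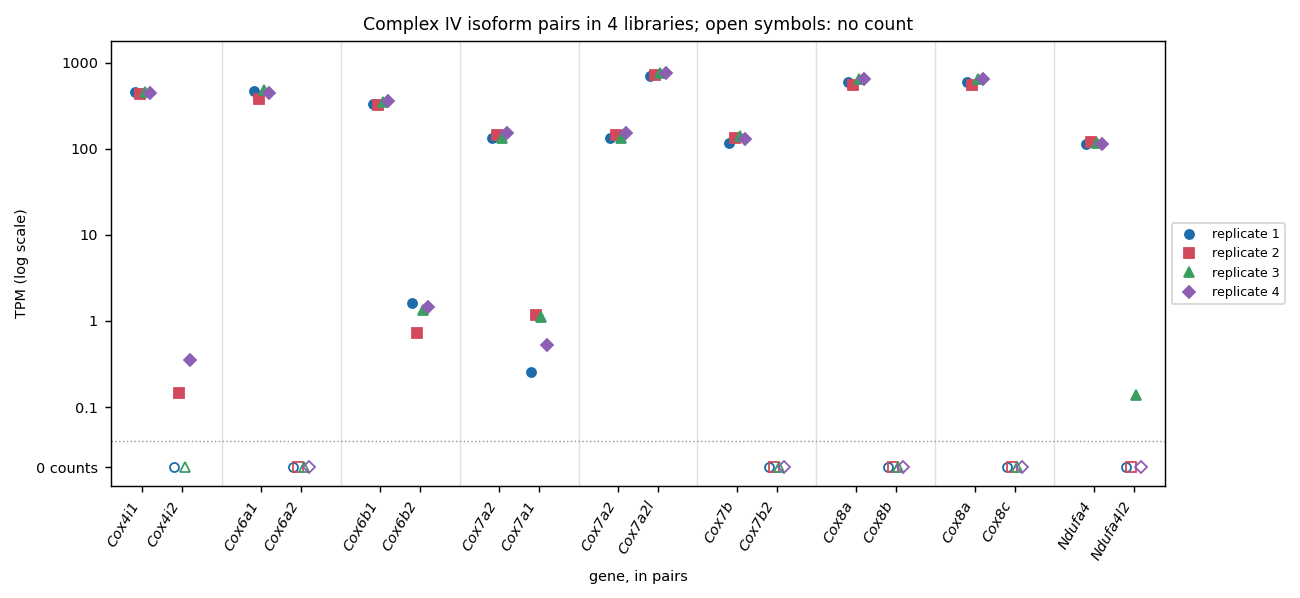
Level of the genes of 9 complex IV isoform pairs in TPM on a log axis, with 1 symbol per library and open symbols below the dotted line for libraries with no count. The first gene of 8 pairs lies above 100 TPM while its partner lies below 2 TPM or at 0; in the pair Cox7a2 and Cox7a2l both are above 100 TPM and Cox7a2l is the higher.

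Complex V, the ATP synthase, had a median of 134 ± 7.70 TPM, and its catalytic head held the highest subunits. Atp5b, the catalytic beta subunit, had 550.2, 553, 564 and 579.9 TPM in replicates 1 to 4, and Atp5a1, the alpha subunit, had 655, 712, 667 and 673 TPM. Atp5b over Atp5a1 gave a log2 ratio of -0.27 ± 0.07, with the same sign in 4 of 4 libraries, although by main transcript length the order turned, with 863 ± 20.2 TPM for Atp5b and 596 ± 21.7 TPM for Atp5a1. The central stalk genes were lower: Atp5c1, the gamma subunit, had 219.9, 258, 230.0 and 226 TPM, and Atp5d, the delta subunit, had 317, 272, 309.8 and 302 TPM. Atp5e, the epsilon subunit, had 138, 139, 158 and 151 TPM and was the lowest of the 5 in every library by exon length. It had 425 ± 29 TPM by main transcript length, above Atp5d with 285 ± 18.7 and Atp5c1 with 265 ± 18.9 TPM.

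The peripheral stalk holds the head still against the rotor. Atp5h, subunit d, had 174, 196, 177 and 182 TPM in replicates 1 to 4. Atp5o, which confers sensitivity to oligomycin, had 102, 103, 116 and 114 TPM. Atp5f1, subunit b, had 83.8, 87.3, 91.1 and 87.7 TPM and Atp5j had 71.04, 74.6, 68.3 and 68.2 TPM, and the 4 genes kept this order in every library by exon length. Atp5j, with 189.6 ± 8.07 TPM by main transcript length, then lay above Atp5f1, with 156 ± 5.24 TPM. The gene model behind Atp5o in the files runs over chr16:91684398-91931687, while M21 gives the symbol to a pair of genes, so its length is uncertain. Exons of other genes on its strand cover 12.7% of its exon bases.

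Among the small membrane subunits, Atp5mpl had 241, 269, 273 and 284 TPM and Atp5k, subunit e, had 110.2, 123, 118 and 131 TPM in replicates 1 to 4. Atp5j2, subunit f, had 55.3, 55.6, 63.1 and 60.2 TPM. By main transcript length Atp5mpl, with 110.5 ± 7.62 TPM, had a lower mean than Atp5k, with 139 ± 9.82, and Atp5j2, with 141 ± 9.02 TPM. Atp5l, subunit g, was by exon length the lowest of the 75 common subunits with 6.71, 6.21, 5.999 and 6.02 TPM. Atp5l has 6443 exon bases in the files but 544 in its main coding transcript, and 17 annotated pseudogenes hold some of its words. Atp5s, a coupling factor grouped here by its name, had 6.67, 7.3, 4.84 and 7.82 TPM, with replicate 3 the lowest and the highest CV of the detected members, 19.5%.

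The c ring, the rotor in the membrane, is built from a single small protein made by 3 genes. Atp5g2 (chr15:102662864-102672352, minus strand) had 55.8, 53.7, 62.5 and 59.1 TPM in replicates 1 to 4. Atp5g1 (chr11:96068852-96075670, minus strand) had 25.7, 23.7, 28.1 and 24.8 TPM, and Atp5g3 (chr2:73908447-73911326, minus strand) had 170.3, 183, 180.0 and 166 TPM. The values of the 3 genes did not overlap: Atp5g2 over Atp5g1 gave a log2 ratio of 1.17 ± 0.06, and Atp5g2 over Atp5g3 gave -1.60 ± 0.12. By main transcript length the ratio of Atp5g2 over Atp5g1 was 2.306, in the same direction, but without length correction it turned to -0.3758. The order of these 2 genes thus rests on their lengths. Atp5g1 has 4912 exon bases and 4715 in its main transcript, and Atp5g2 has 1675 and 731. The presequences of the 3 proteins differ, and the last 78 codons encode the same residues in all 3.

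The coding sequences of those 78 codons are shown because reads could be told apart only by their differences, which the capitals mark. They are taken from the GENCODE M21 transcripts, 5′ to 3′ on the coding strand, without the stop codon.
Atp5g1: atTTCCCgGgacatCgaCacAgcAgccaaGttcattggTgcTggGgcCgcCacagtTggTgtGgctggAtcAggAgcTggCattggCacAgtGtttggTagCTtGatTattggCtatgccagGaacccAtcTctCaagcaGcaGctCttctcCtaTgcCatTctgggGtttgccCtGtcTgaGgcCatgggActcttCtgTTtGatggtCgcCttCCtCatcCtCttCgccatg
Atp5g2: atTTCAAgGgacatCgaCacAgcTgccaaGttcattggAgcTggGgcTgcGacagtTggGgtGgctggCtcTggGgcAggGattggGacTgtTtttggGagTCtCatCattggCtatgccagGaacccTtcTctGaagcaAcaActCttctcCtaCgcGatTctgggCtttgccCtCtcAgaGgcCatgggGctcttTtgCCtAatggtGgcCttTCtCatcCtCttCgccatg
Atp5g3: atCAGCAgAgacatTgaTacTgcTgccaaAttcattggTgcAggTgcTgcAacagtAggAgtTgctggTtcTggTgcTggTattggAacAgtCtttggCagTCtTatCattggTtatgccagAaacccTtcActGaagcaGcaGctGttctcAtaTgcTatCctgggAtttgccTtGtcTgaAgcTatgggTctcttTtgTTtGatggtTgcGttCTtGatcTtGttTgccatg
Of 234 bases, 63 differ between at least a pair of the genes, and 73.1% are the same in all 3. Atp5g1 and Atp5g2 match at 84.6% of bases with a longest identical run of 20 bases, Atp5g1 and Atp5g3 at 78.6% with a run of 11, and Atp5g2 and Atp5g3 at 77.4% with a run of 8. Any run of more than 20 bases of this stretch thus differs between the 3 genes. Over the whole transcripts, 49.2% of the 50-base words of Atp5g2, 21.3% of those of Atp5g1 and none of those of Atp5g3 occur in transcripts of another gene, and the files leave out fragments with several alignments.

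Complex I had the lowest median with both lengths, while the order of the other complexes depended on the length and on the summary used. With the mean over subunits in place of the median, complex IV was the highest by exon length, with 229.9 TPM against 160.0 TPM for III. By exon length as deposited, complex III lay above every other complex and complex I below every other complex in each library, with no overlap. Complexes V, IV and II, with 134 ± 7.70, 129 ± 7.29 and 127 ± 2.37 TPM, overlapped. The exon length counts the bases of all annotated isoforms, and for 24 of 75 subunits it is over 2 times the length of the main coding transcript in M21. With the main coding transcript as length, an alternative chosen after seeing the data, medians were 197 ± 3.66 TPM for V, 161 ± 11.2 for IV, 154 ± 4.36 for III, 125 ± 2.64 for II and 97.5 ± 1.39 for I. Complex V was then above the others without overlap, III and IV overlapped, and I stayed lowest without overlap.

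**Figure D3:**
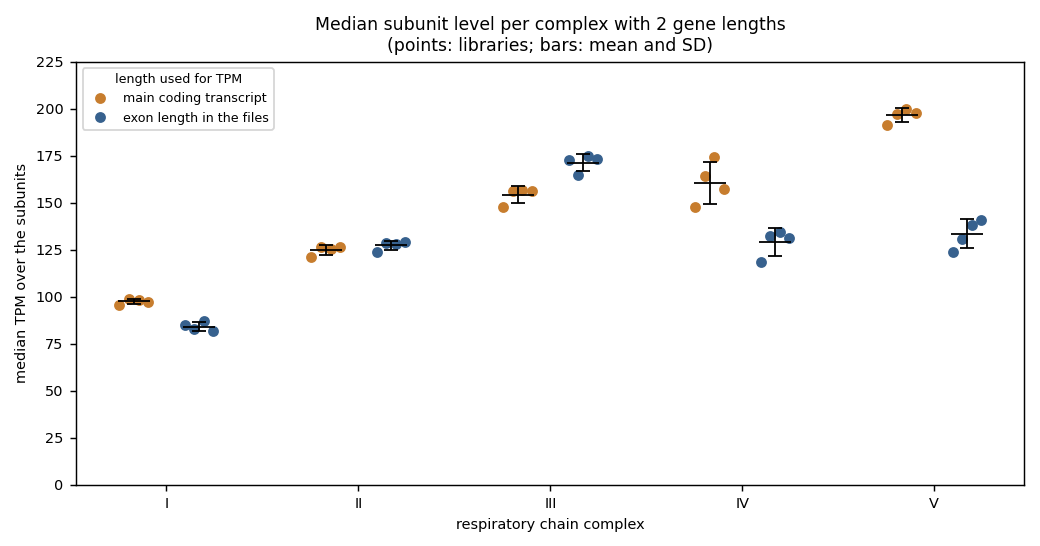
Median TPM over the common subunits of each complex, with 1 point per library and the mean ± SD as bars, computed with the length of the main coding transcript and with the exon length in the files. Complex I is lowest with both lengths, at 97.5 and 84.1 TPM, while complex V is highest with the main coding transcript (197 TPM) and complex III with the exon length (171 TPM).

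Single genes shifted by more than their complexes, with each library scaled to the same total under both lengths. Atp5l had 51.3 ± 2.76 TPM by main transcript length, against 6.23 ± 0.331 by exon length, and Ndufb7, an accessory subunit of complex I, had 205 ± 16.7 against 40.6 ± 3.3 TPM. The other 5 subunits below 20 TPM, which are Ndufb2, Ndufb4, Ndufab1, Ndufs5 and Ndufc1, were below 20 TPM with both lengths. For Ndufb2 and Ndufab1 both lengths are long, 5628 and 4371 bases for Ndufb2 and 6883 and 3479 for Ndufab1. Without length correction (CPM, counts scaled to the library total), Ndufab1 had a mean of 20.87 and Ndufb2 15.59. Atp5k, with 120.5 TPM by exon length, had 21.26 CPM. Ndufb4, Ndufs5 and Ndufc1 had 3.552, 3.767 and 7.161 CPM. The part of length in these low levels was not tested. Across the 75 subunits, mean TPM and the ratio of exon length to main transcript length had a Spearman coefficient of -0.29, a description over genes whose TPM contains the exon length itself.

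Some members share sequence with other genes. Of 93 members, 42 had no 50-base word in transcripts of another gene, 16 had over 20% shared and 1, the assembly factor Ndufaf2, had over 50%. Ndufaf2 had 53.5% shared words and 12.98, 12.5, 14.6 and 12.1 TPM in replicates 1 to 4. Among subunits, Atp5g2 with 49.2%, Atp5h with 43.3%, Cox7c with 39.4% and Atp5o with 39% shared the most. Since M21 gives the symbol Atp5o to a pair of genes, its share may include words of the other gene of that name. Ndufs5 and Ndufb4, both low, had 33.1% and 28.1%. The part of this sharing in their levels was not tested.

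The subunits encoded in mitochondrial DNA gave a scale for the nuclear ones. In complex I, mt-Nd1 had 3253 ± 202 TPM, above every nuclear-coded member. In complex III, mt-Cytb had 6396 ± 659 TPM and Uqcrc1 163 ± 7.83 TPM, a log2 ratio of 5.29 ± 0.21. In complex IV, mt-Co1 had 14530 ± 1133 TPM and Cox4i1 446 ± 13.6 TPM, a log2 ratio of 5.02 ± 0.16. These ratios by main transcript length were smaller, 3.965 for mt-Cytb over Uqcrc1 and 4.005 for mt-Co1 over Cox4i1, and without length correction the first was 3.434. The mitochondrial gene was the higher one in both pairs under each of these settings. Words of mt-Nd1 and mt-Cytb occur in no other gene, whereas 51.3% of those of mt-Co1 do.

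The same could not be done for complex V. mt-Atp6 had 5 counts in all 4 libraries against 105819 for Atp5a1, and 98.4% of its words occur in another gene. mt-Co2, mt-Co3, mt-Nd3 and mt-Nd4l, with 96.7% to 100% of words shared, had 0 to 6.73 TPM. mt-Atp8 and mt-Nd6 were low too, with 0.344 ± 0.518 and 7.62 ± 1.05 TPM, and share no word. The ratio mt-Atp6 over Atp5a1, -11.45 ± 0.84 on the log2 scale, therefore stands beside a sharing value far above that of any nuclear member, and its cause was not tested.

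**Figure D4:**
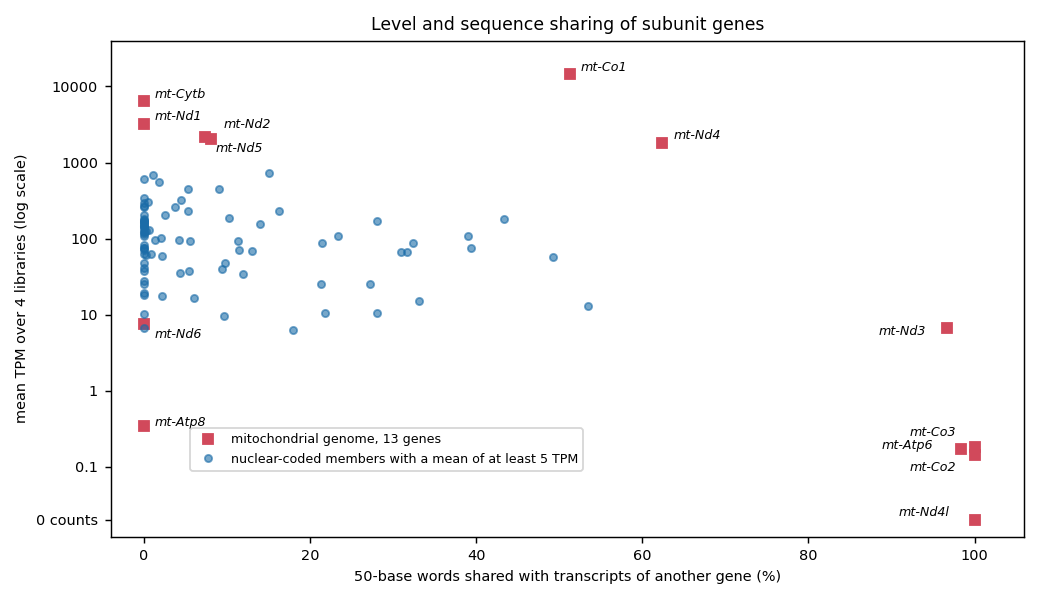
Mean TPM on a log axis against the percentage of 50-base words that also occur in transcripts of another gene, for 13 genes of the mitochondrial genome (squares) and the nuclear-coded members with a mean of at least 5 TPM (circles). The 5 mitochondrial genes with 96.7% or more shared words lie at 6.73 TPM or below, and no nuclear-coded member exceeds 53.5% shared words.

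Of the 19 pairs, 15 had counts on both sides and were tested with an exact permutation test that flips the signs of the 4 library values, two-sided. Each of the 15 ratios had the same sign in 4 of 4 libraries and an exact permutation p of 0.125, also after Benjamini-Hochberg adjustment, which is the smallest p that 4 libraries allow. No ratio could therefore pass a threshold of 0.05, and differences between genes are given as values with their SD.

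No member was called variable between libraries, and few of all tested genes were, so this count does not set the members apart. In edgeR, with an intercept-only fit over all genes and Benjamini-Hochberg adjustment, 0 of 85 members tested were called variable at an adjusted p of 0.05, while 142 of 12554 genes (1.13%) were. At an unadjusted p under 0.05, 2 of 85 members were found, against 657 of 12554 genes (5.23%), and with the dispersion trend of DESeq2 0 members were called as well. In data simulated at the dispersion trend of these libraries, the test recovered 49 of 100 genes raised 1.5-fold in 1 library and 97 of 100 raised 2-fold. The median range between the highest and lowest library was 0.202 on the log2 scale for members and 0.242 for all tested genes. It was 0.22 for protein-coding genes and 0.203 for mitochondrial ribosomal proteins. Of the 85 members with a mean of at least 5 TPM, 75 had a CV under 10%, and this share was not measured over all genes. With a mean of at least 1 TPM, the median CV was 5.85% for members, 6.87% for protein-coding genes and 6.37% for mitochondrial ribosomal proteins.

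The 2 members with an unadjusted p under 0.05 were Ndufa13 and Cox6a1. Ndufa13, an accessory subunit also known as a cell death regulator, had 182, 138, 179.5 and 172 TPM in replicates 1 to 4 and an edgeR adjusted p of 0.199. Cox6a1, with the values given above, had an edgeR adjusted p of 0.528. Both were lowest in replicate 2, while their other libraries lay close together. With the trend on transcript GC and length removed, an alternative chosen after seeing the data, both had an edgeR adjusted p of 1.0. Across most settings the edgeR adjusted p ranged from 0.171 to 1.0 for Ndufa13 and from 0.482 to 1.0 for Cox6a1. These ranges take in the main fit, other size factors and dispersions, each replicate left out and the trend removed. They leave out the fit with no filter on low counts.

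In replicate 2, members with GC-rich transcripts were the lower ones. The GC content of the main coding transcript is 60.4% for Ndufa13 and 58.8% for Cox6a1. Across the 85 members, the log2 deviation in replicate 2 and transcript GC had a Spearman coefficient of -0.58, and in replicates 1, 3 and 4 it was 0.28, 0.25 and 0.29. Over 10783 genes with a transcript GC value the coefficients were -0.57 in replicate 2 and 0.34, 0.05 and 0.29 in replicates 1, 3 and 4. These are descriptions over genes that share a library, and the deviations of the 4 libraries are tied since they sum to 0 for each gene.

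**Figure D5:**
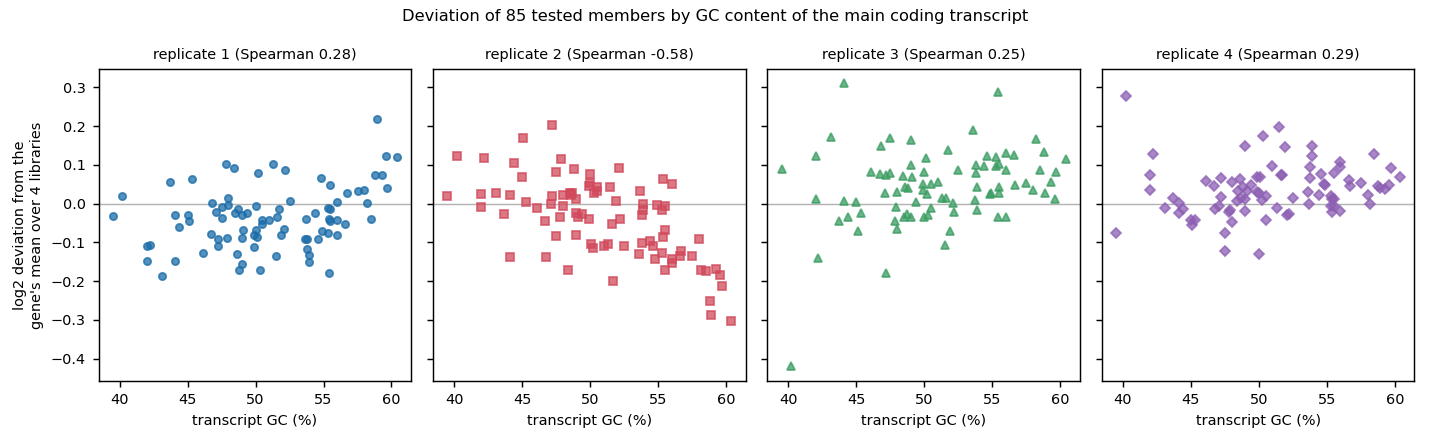
Log2 deviation of each of 85 members from its mean over the 4 libraries, against the GC content of its main coding transcript in percent, with 1 panel per library. Points fall with GC in replicate 2 (Spearman -0.58), while the coefficients in the other 3 libraries are 0.25 to 0.29.

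The median shift of the members between libraries was small, but it was not spread evenly over the libraries. Their median log2 deviation was -0.041, -0.026, 0.043 and 0.030 in replicates 1 to 4, and the lowest library was replicate 1 for 34 members, replicate 2 for 35, replicate 3 for 10 and replicate 4 for 6. That is 40.0%, 41.2%, 11.8% and 7.06% of the 85 members, against 26.5%, 27.8%, 22.8% and 22.98% of all tested genes. The median over all tested genes lay between -0.0005 and 0.0061. Genes whose symbols match the rule for cytosolic ribosomal proteins, a rule that also takes in 10 S6 kinase genes, Rps19bp1 and 6 genes with a -ps symbol, gave -0.076, -0.078, 0.068 and 0.078. Without those kinases, Rps19bp1 and -ps genes, a choice made after seeing the data, the values were -0.080, -0.082, 0.072 and 0.078. The signs were those of the members with both lists, and mitochondrial ribosomal proteins lay between -0.013 and 0.019. Genes of the mitochondrial genome gave -0.145, 0.113, 0.042 and 0.021.

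Assembly factors had lower medians than the subunits. The 8 assembly factors of complex I among the members, which help to build the complex but are not part of it, had a median of 18.9 ± 1.201 TPM, against 109 ± 4.26 TPM for the 75 subunits. Ndufaf8 had 42.3, 45.9, 57.9 and 46.04 TPM and Ndufaf3 had 26.7, 25.1, 28.9 and 28.9 TPM in replicates 1 to 4, the highest of the 8. Ndufaf6 was the lowest with 10.1, 10.8, 10.7 and 9.08 TPM. Assembly factors of complex I with other names had a median of 34.7 ± 2.11 TPM over 8 genes, from Dmac1 with 127 ± 8.39 TPM to Nubpl with 3.19 ± 0.488 TPM. Those of complex II had 24.8 ± 1.95 TPM over 4 genes, from Sdhaf2 with 51.5 ± 2.21 to Sdhaf3 with 2.02 ± 0.422 TPM. Those of complex III had 18.9 ± 0.345 TPM over 6 genes, from Uqcc3 with 156 ± 16.7 to Lyrm7 with 4.21 ± 0.609 TPM. These 3 medians lie below that of the 75 subunits, though the means of Dmac1 and Uqcc3 lie above it. Complex IV assembly factors had a median of 22.7 ± 0.792 TPM over 22 genes, from Cox14 with 157 ± 20.1 TPM to Pet117, which had no count. The list for complex V, which includes its inhibitor, had 29.1 ± 0.883 TPM over 4 genes, from Atpaf2 with 57.2 ± 0.644 to Atpaf1 with 14.7 ± 0.643 TPM. None of the 43 tested genes of these 5 other lists was called variable in edgeR at an adjusted p of 0.05, beside 1.13% of all genes, and 3 had an unadjusted p under 0.05.

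Promoters of members were searched for short motifs of factors known to act on respiratory genes. RefSeq promoters of 300 bases on GRCm38.p6, from 250 before to 50 after the start, were found for 76 of 93 members, and a gene with several promoters counted if any held the motif. The NRF1 letters GCGCATGCG were found in 10 of 76 members (13.2%), in 4.66% of 8086 protein-coding genes at 1 TPM or more in every library and in 1.95% of all 27025 genes with a promoter. The YY1 letters AAGATGGCG were found in 8 members (10.5%), in 4.22% of the detected genes and in 1.64% of all. For mitochondrial ribosomal proteins the shares were 10.1% and 11.6%.

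The shares of the other 3 motifs were lower in members than in detected genes or close to them, and above those of all genes with a promoter. The Ets letters CCGGAAGT, read by GABP and related factors, were in 5 members (6.58%), in 10.7% of detected genes and in 4.31% of all. The Sp1 letters GGGCGGG were in 28 members (36.8%), in 53.3% of detected genes and in 27.9% of all. CCAAT was in 34 members (44.7%), in 43.5% of detected genes and in 41.1% of all. All motifs were searched on both strands as exact letters, and no string of the 5 contains another. A match does not show binding, and no match says only that these letters are not in the window. Members with NRF1 letters had a median of 76.2 ± 7.12 TPM and those without 90.2 ± 2.40 TPM, and members with YY1 letters 72.9 ± 3.92 TPM against 92.2 ± 2.46 TPM without. Those with Sp1 letters were also lower, with 71.05 ± 2.38 against 100.7 ± 3.15 TPM. For the Ets letters the order was the other way, with 182.2 ± 9.78 against 85.64 ± 2.97 TPM. It was so for CCAAT too, with 102.9 ± 2.35 against 81.94 ± 3.61 TPM. These medians are by exon length only and mix subunits with assembly factors and isoform genes. Whether the differences hold by main transcript length was not tested.

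The members with the highest level by exon length that hold the NRF1 or YY1 letters are shown, with capitals marking any of the 5 motifs. Cox6a1 is at chr5:115348909-115349208 and Ndufa8, an accessory subunit of complex I, at chr2:36049289-36049588, both on the minus strand. Ndufs7 is at chr10:80249199-80249498 on the plus strand and Ndufa9, an accessory subunit near the ubiquinone site, at chr6:126849095-126849394 on the minus strand.
Cox6a1: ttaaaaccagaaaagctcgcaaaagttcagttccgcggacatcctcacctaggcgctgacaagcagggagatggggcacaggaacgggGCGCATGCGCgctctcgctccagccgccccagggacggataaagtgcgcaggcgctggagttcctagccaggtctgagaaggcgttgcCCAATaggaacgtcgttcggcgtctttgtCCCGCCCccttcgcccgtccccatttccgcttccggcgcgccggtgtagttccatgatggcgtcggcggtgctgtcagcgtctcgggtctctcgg
Ndufa8: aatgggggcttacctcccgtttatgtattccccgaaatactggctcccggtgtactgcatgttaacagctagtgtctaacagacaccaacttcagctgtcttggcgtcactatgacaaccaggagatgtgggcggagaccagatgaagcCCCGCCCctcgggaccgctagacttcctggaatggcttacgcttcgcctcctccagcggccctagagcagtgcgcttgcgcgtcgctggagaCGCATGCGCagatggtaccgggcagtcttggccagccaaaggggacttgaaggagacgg
Ndufs7: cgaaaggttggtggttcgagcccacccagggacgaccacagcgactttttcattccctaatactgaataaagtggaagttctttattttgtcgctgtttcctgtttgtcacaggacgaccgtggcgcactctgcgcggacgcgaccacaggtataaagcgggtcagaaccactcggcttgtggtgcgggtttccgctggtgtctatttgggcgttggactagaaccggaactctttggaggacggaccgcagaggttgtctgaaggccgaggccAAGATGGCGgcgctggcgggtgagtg
Ndufa9: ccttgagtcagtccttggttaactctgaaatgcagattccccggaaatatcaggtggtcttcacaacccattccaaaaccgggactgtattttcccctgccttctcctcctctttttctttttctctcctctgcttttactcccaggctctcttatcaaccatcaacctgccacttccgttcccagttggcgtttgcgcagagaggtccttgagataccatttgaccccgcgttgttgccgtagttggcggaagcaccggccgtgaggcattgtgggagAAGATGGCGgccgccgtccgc
In Cox6a1 the NRF1 letters occur on both strands, shifted by 1 base, with the first bases at -162 and -161 from the start site, and Sp1 and CCAAT letters follow. In Ndufa8 the NRF1 letters begin at -9. The YY1 letters lie after the start site, at 24 in Ndufs7 and at 29 in Ndufa9. Mean levels were 445 ± 45.3 TPM for Cox6a1, 168 ± 7.55 for Ndufa8, 124 ± 9.9 for Ndufs7 and 102 ± 3.74 for Ndufa9.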

How the data were processed

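RNA was measured in 4 libraries of 1 group. The deposited values are raw counts of fragments per gene, made by the authors with featureCounts 1.4.6-p4, per the file headers. Exons of GENCODE M13 were used, pairs needed both ends aligned, the strand setting was 2 (reverse), and the alignments were named star2. Fragments with several alignments, or lying over several genes, were not counted, since neither option was set. The build is mm10, per the labels, which state total RNA but cite a library protocol named for poly(A) RNA. No source used here gives the read length.

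From the counts and the deposited exon lengths, TPM was calculated. GENCODE M21 supplied symbols for 50376 of 50600 genes (99.6%) and the main coding transcript, the longest principal one. Coordinates are 1-based, from the deposited exons. Variable genes were tested over all genes in edgeR 4.0.16 (R 4.3.3) after filterByExpr and TMM, by setting the deviance of an intercept-only fit with trended dispersion against chi-square, with Benjamini-Hochberg adjustment at 0.05. DESeq2 1.42.0 gave alternative size factors and dispersions. In simulated data of 12554 genes, 200 of them changed, 8 false calls were made (5.19% of calls). Pair ratios used log2(TPM+0.1). Sharing is the percentage of 50-base words, sampled in steps of 10 bases, that another gene's M21 transcripts also hold on either strand. Versions were 3.11.15 of Python, 1.17.1 of scipy, 2.4.6 of numpy, 2.3.3 of pandas and 3.10.9 of matplotlib.

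Members and lists were chosen with earlier results of these data known. Values in every library are given for nuclear core subunits of complex I, of which 1 is not reported here, all members of complexes II and III, both genes of every pair, the 2 highest and 2 lowest members of each role list, and any member called variable. Other lists are named by their highest and lowest gene. Ndufa13 and other members named singly were named after their values were seen. Alternatives changed the normalization, filter, threshold, dispersion, unit, length and pseudocount, and left out each library. Depth ran from 23000465 to 62090744 counts.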

Additional observations from a re-analysis of the deposited data

Results flagged for a closer look

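For 9 of 87 members with a count in every library, the highest or lowest of the 4 libraries stood far from the other 3. Chance alone gives about 1 in 20, or 4.35 of 87. The share of all genes that this rule flags was not measured, so the count cannot be read as particular to the members. In replicate 2, Ndufs1 was far above the rest with 40.58 TPM and Uqcrc2 with 205.7 TPM. In the same library Ndufb7, with 35.70 TPM, Ndufs6, with 83.82 TPM, and Uqcrc1, with 151.5 TPM, were far below. In replicate 1, Sdhb with 104.2 TPM and Uqcrfs1 with 186.0 TPM were far below the rest. In replicate 3, Ndufb5 was far below with 31.94 TPM and Uqcr10 far above with 194.7 TPM. Of the 9, 5 were in replicate 2, the library whose deviations fell with transcript GC. None of the 9 was called variable in edgeR at an adjusted p of 0.05, and the cause was not tested.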

How the results depend on the processing

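Lengths and units, more than libraries, moved the values. The share of TPM taken by members was 1.293% over protein-coding genes, 0.5875% as a share of counts and 1.322% with the main coding transcript as length. In the order of complexes I to V, the mean in place of the median gave 98.45, 144.7, 160.0, 229.9 and 192.4 TPM, protein-coding genes only 91.11, 138.0, 185.7, 139.8 and 144.7, and the main coding transcript 97.46, 124.8, 154.3, 160.7 and 196.6. Leaving out members with over 20% shared words gave 93.44 for I, 179.5 for III, 143.9 for IV and 174.9 for V and left II at 127.3. The planned limit of 50% removed no subunit and gave no value. These length and 20% alternatives were chosen after seeing the data.

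Without length correction (CPM), the log2 ratios Atp5g2/Atp5g1, Atp5b/Atp5a1 and Uqcrc1/Uqcrc2 turned to -0.3758, 0.1658 and 0.4967, and with the main coding transcript Atp5b/Atp5a1 and Uqcrc1/Uqcrc2 turned to 0.5327 and 0.6946. No member was called variable under any of the 9 alternatives. The genes called variable in all were 142, but 88 with no filter, 74 at an adjusted p of 0.01 and 60 to 85 with a replicate left out, where fewer libraries were fitted. Members at 1 TPM or more in every library numbered 85 or 86 of 93 with a replicate left out and 85 with the main coding transcript, 84 reached 5 TPM and 86 reached 10 counts in every library. No paired analysis was possible because all 4 libraries form 1 group. Depth limits the isoforms with few counts, where the interval of Ndufa4 over Ndufa4l2 spans 1130 to 248000.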

Other observations

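By exon length, genes that regulate or feed the respiratory chain were mostly present at moderate levels. Of 16 regulators, 15 were tested, none was called variable in edgeR at an adjusted p of 0.05 and 1 had an unadjusted p under 0.05, and their median level was 44.6 ± 2.86 TPM (SD, n = 4). Yy1, a transcription factor of many promoters, was the highest with 107, 118, 128 and 108 TPM in replicates 1 to 4. Ppargc1a, a coactivator known to drive mitochondrial gene expression in muscle and brown fat, was the lowest with 0.0688 ± 0.0319 TPM, while its relatives Pprc1 and Ppargc1b had 84.9 ± 2.21 and 16.6 ± 0.693 TPM. These relatives, Nrf1 with 27.8 ± 0.728 TPM, Gabpa with 44.8 ± 2.14 TPM and Ucp2 below were named after their values were seen.

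Among 7 uncoupling and nucleotide carriers, Slc25a5, an ADP/ATP carrier, was the highest with 492 ± 20.98 TPM, and Slc25a31, its testis form, had no count in any library. Ucp2, an uncoupling protein family member found in immune cells, had 447, 428, 408 and 407 TPM in replicates 1 to 4, while Ucp1, the form of brown fat, had no count. Of 7 further electron carrier genes, Cyc1 was the highest with 294 ± 12.9 TPM and Etfb, of the electron transfer flavoprotein, the lowest with 13.6 ± 1.49 TPM. Cytochrome c itself, Cycs, had 13.7 ± 1.34 TPM over 3404 exon bases. Word sharing with other genes was not measured for Cycs, so the part of sharing and length in this low level is unknown. In both of these lists no tested gene was called variable in edgeR at an adjusted p of 0.05, 0 of 4 and 0 of 7, and none had an unadjusted p under 0.05. Genes matching the symbol rule for cytosolic ribosomal proteins had a median of 826 ± 44.1 TPM, and 1 of 93 tested was called variable, beside 1.13% of all genes. That rule also takes in S6 kinase genes, Rps19bp1 and genes with a -ps symbol, and the 84 genes without them had a median of 1109 ± 61.3 TPM. Mitochondrial ribosomal proteins had 39.3 ± 1.78 TPM, with 0 of 78 tested genes called.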
